A study of Mus musculus with 18 samples.

Results

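The 9 genes described here encode 3 matrix metalloproteinases (Mmp8, Mmp9 and Mmp13), the cathepsins Ctsk and Ctsl, the secreted protease inhibitor Serpine2, the basement-membrane collagen chains Col4a1 and Col4a2, and the proteoglycan decorin (Dcn). They were found by gene symbol in the lists of genes that the authors deposited for 3 comparisons, and they are 9 of 816 symbols in those lists. They were selected on the listed fold changes and p-values of these comparisons, so their values are a description and are not tested again here. The study measured RNA by sequencing in bone marrow-derived macrophages of mice, primary cells grown with L929 cell conditioned medium. EED KO cells carried a loxP-flanked Eed gene and 1 copy of LysM-Cre, a Cre recombinase expressed from the lysozyme gene Lyz2 in myeloid cells, and WT cells came from littermate controls whose alleles the sources used here do not give. Cells of each genotype were unstimulated, LPS primed or LPS tolerant, with 3 libraries in each of the 6 groups. Priming was with lipopolysaccharide (LPS), a bacterial cell wall component, at 100 ng/ml for 24 h. Tolerant cells were primed in the same way, left without LPS for 48 h and then exposed to a second dose of 10 ng/ml. The labels do not say whether libraries came from separate mice, so p-values may measure a spread that is in part technical.

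Macrophages both degrade and build extracellular matrix. Matrix metalloproteinases are secreted zinc enzymes that cleave collagens and other matrix proteins outside the cell. Cathepsins are proteases that work mainly in lysosomes, and in osteoclasts, a relative of macrophages, cathepsin K is released to digest bone collagen. Serpins such as Serpine2 trap serine proteases irreversibly. Collagen IV forms the network of basement membranes, and decorin coats collagen fibrils. EED belongs to the core of Polycomb repressive complex 2, which methylates lysine 27 of histone H3 and is known for silencing genes with CpG-rich promoters.

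All values per gene come from the authors' deposited table, which gives a log fold change of EED KO against WT, a p-value and an adjusted p-value. Its base was taken as 2, the scale of edgeR. The direction was read from Eed itself, which stood at -3.04 in unstimulated, -3.59 in primed and -3.87 in tolerant cells in the authors' deposited table. Values per library were not used here, so neither the level of each gene in each sample nor the depth behind it is known. As an error, an approximate standard error (SE) is given, implied by each fold change and its p-value. The listed rows all had an unadjusted p under 0.05 and an absolute log2 fold change of at least 0.75, so a gene absent from a list had no value to report, which does not show that it was unaltered. The adjusted p-values in the authors' deposited table imply at least 413233 tests in unstimulated, 379717 in primed and 338297 in tolerant cells, against 55450 genes in GENCODE vM21. A listed value may therefore belong to part of a gene. The labels of WT LPS primed replicate 1 do not name a comparison, so whether that library entered the primed values is not known.

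In EED KO cells the metalloproteinases, Serpine2, the collagen IV chains and decorin were listed as higher than in WT cells, and both cathepsins as lower. Of the 27 possible values of 9 genes in 3 conditions, 16 were listed, 13 higher and 3 lower in EED KO cells. That is 81.2% higher, close to the 80.1% of all 1023 listed values, so the balance of directions is that of the lists. The verbs rose and fell are used below for the 8 values with an adjusted p under 0.05, which belong to 7 of the 9 genes. In unstimulated cells 6 of the 9 genes were listed, of which 1 rose and 1 fell, where 21.8% of all listed higher genes and 11.3% of all listed lower genes passed. In LPS primed cells 5 were listed, all higher, and 3 rose, where 34.6% of listed higher and 27.6% of listed lower genes passed. In LPS tolerant cells 5 were listed, of which 2 rose and 1 fell, where 25.9% of listed higher and 13.3% of listed lower genes passed. These shares are of listed genes only, since the rows outside the lists were not used, and the choice of genes rests on the same comparisons. Serpine2 was the only one of the 9 listed in all 3 conditions, 5 genes were listed in 2 and 3 in 1. The value just inside the threshold was that of Dcn in LPS primed cells (adjusted p = 0.0287) and the one just outside that of Col4a1 in unstimulated cells (adjusted p = 0.0932) per the authors' deposited table.

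**Figure D1:**
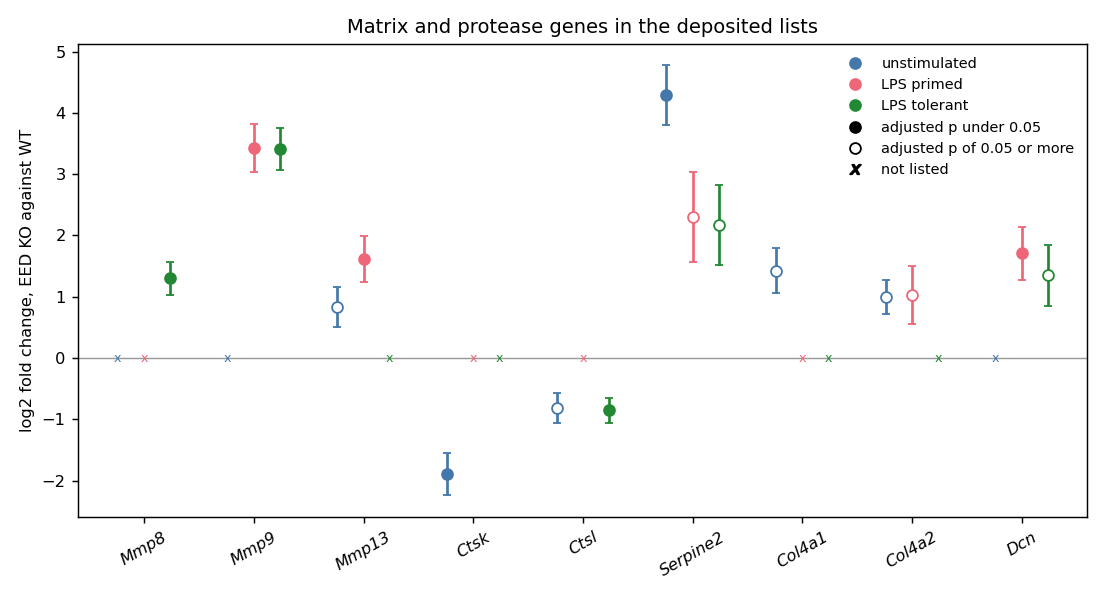
Log2 fold change of EED KO against WT (vertical axis) for each of the 9 genes (horizontal axis) in unstimulated, primed and tolerant cells. Points are the values in the authors' deposited table, bars the approximate implied SE, filled points an adjusted p under 0.05, and crosses mark genes that were not listed. Serpine2 in unstimulated cells (4.29) and Mmp9 in LPS primed and tolerant cells (3.43 and 3.41) lie highest, and Ctsk and Ctsl lie below 0.

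The promoters of these genes differed in a feature that the choice of genes did not use, their content of CpG dinucleotides. RefSeq promoter windows of 300 bases (250 before and 50 from the transcription start, GRCm38.p6, an older build than the GRCm39 named in the submitters' processing notes) were found for 7 of the 9 genes, all but Mmp9 and Dcn. The sequences printed are the 250 bases before the start, 5′ to 3′ on the gene's strand, of the 2 genes that passed the threshold in unstimulated cells in opposite directions, Serpine2 and Ctsk, and of Mmp13, with every CpG in capitals.
Serpine2 (chr1:79858666-79858915, minus strand): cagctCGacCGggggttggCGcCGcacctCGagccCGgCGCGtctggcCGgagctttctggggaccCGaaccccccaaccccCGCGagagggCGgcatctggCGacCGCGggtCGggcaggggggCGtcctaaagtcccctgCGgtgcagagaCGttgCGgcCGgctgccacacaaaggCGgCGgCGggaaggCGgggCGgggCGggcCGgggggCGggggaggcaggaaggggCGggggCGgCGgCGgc
Ctsk (chr3:95498960-95499209, plus strand): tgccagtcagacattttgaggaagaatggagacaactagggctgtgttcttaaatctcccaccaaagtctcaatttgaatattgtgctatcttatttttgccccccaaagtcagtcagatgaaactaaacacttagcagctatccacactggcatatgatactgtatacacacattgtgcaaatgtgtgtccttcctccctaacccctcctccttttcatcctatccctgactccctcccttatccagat
Mmp13 (chr9:7272264-7272513, plus strand): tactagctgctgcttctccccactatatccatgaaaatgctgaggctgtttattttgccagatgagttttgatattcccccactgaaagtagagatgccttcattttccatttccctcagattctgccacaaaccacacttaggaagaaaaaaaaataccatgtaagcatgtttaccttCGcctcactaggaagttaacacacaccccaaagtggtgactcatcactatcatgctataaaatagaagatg
The Serpine2 stretch held 34 CpG, the Ctsk stretch 0 and the Mmp13 stretch 1. Over the 300-base window, the ratio of observed to expected CpG was 0.938 for Serpine2, at percentile 90.2 of the 32851 RefSeq windows, whose median was 0.384. Col4a1 and Col4a2 were also CpG-rich, at 0.902 and 0.818 (percentiles 87.5 and 80.7). They lie head to head on opposite strands, and their windows overlap by 78 bases, so their values are not independent. Ctsl stood in the middle at 0.545 (percentile 60.8). Mmp8, Ctsk and Mmp13 were CpG-poor, at 0.254, 0.155 and 0.0722 (percentiles 36.3, 21.8 and 9.37). CpG-rich windows occurred among genes listed as higher, and CpG-poor windows both among genes listed as higher (Mmp8 and Mmp13) and the lower gene Ctsk. Ctsl, the other lower gene, lay above the median of all windows. Among all listed values 80.1% were higher. Whether CpG content goes with direction or with Polycomb silencing was not tested.

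**Figure D2:**
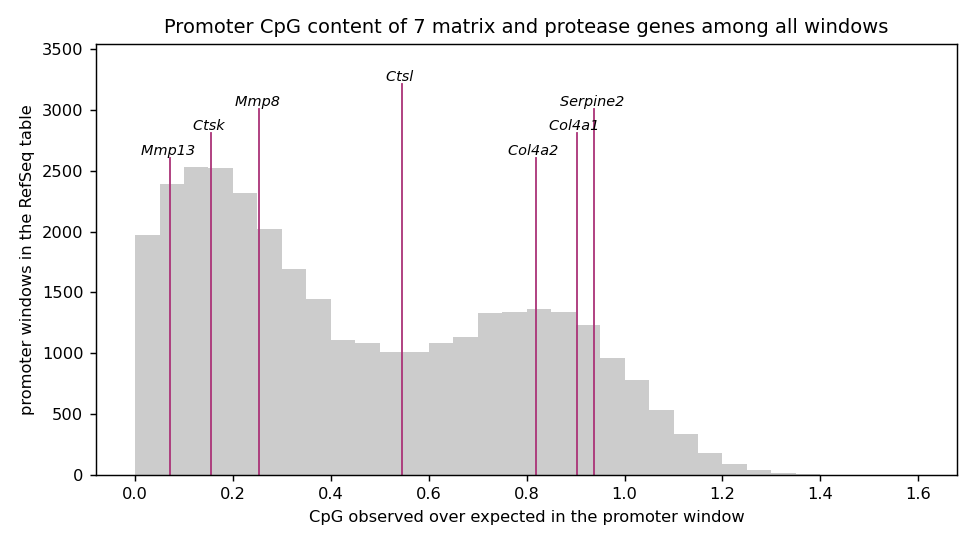
Number of RefSeq promoter windows (vertical axis) by the ratio of observed to expected CpG (horizontal axis), with vertical lines at the 7 genes that had a window. Serpine2, Col4a1 and Col4a2 lie between 0.818 and 0.938, in the CpG-rich part, and Mmp13, Ctsk and Mmp8 between 0.0722 and 0.254, in the CpG-poor part.

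Motifs were searched on both strands of the 300-base windows, and a match describes letters only. The AP-1 motif TGANTCA, found in 7.81% of all windows, occurred in 1 of the 7, that of Mmp13, where it began 35 bases before the start. The letters of the TATA box, TATAAA, found in 13.6% of all windows, occurred in Mmp13 and in Mmp8. They began 16 bases before the Mmp13 start and 3 bases before the Mmp8 start, and whether they act as a TATA box was not tested. The GC box GGGCGG, found in 35.7% of all windows, occurred 6 times before the Serpine2 start, counting matches that overlap by a base. It occurred 3 times in the Col4a2 window and 1 time in that of Col4a1. The Col4a1 match covers the same bases as 1 of the Col4a2 matches, where their windows overlap.

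Mmp9 (ENSMUSG00000017737) encodes gelatinase B, which degrades denatured collagen and collagen IV and is stored in neutrophil granules as well as made by macrophages and osteoclasts. It rose by 3.43 on the log2 scale in LPS primed EED KO cells (10.8-fold, approximate SE 0.39, adjusted p = 1.99e-14) per the authors' deposited table. In LPS tolerant EED KO cells it rose by 3.41 (10.6-fold, approximate SE 0.34, adjusted p = 5.82e-20) per the authors' deposited table. These values ranked 5th among 301 and 6th among 344 listed higher genes by size, and their difference was not tested. Mmp9 was not listed in unstimulated cells. Its nearest genes by Euclidean distance over the 2 conditions, among 71 others listed in just those 2, were Mast4 (distance 1.07) and Peg10 (distance 1.15), computed from the authors' deposited table.

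Mmp13 (ENSMUSG00000050578) encodes collagenase-3, which cleaves fibrillar collagens. It rose by 1.62 in LPS primed EED KO cells (3.06-fold, approximate SE 0.37, adjusted p = 0.00771) per the authors' deposited table. In unstimulated cells it stood at 0.83 (approximate SE 0.32, adjusted p = 1) per the authors' deposited table, and it was not listed in tolerant cells. Whether the EED KO effect on Mmp13 differs between unstimulated and primed cells was not tested. Fgl2 and Cacna1d, at distances of 0.18 and 0.30, lay nearest to Mmp13 among 32 other genes listed in just those 2 conditions, computed from the authors' deposited table.

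Mmp8 (ENSMUSG00000005800), the neutrophil collagenase, was listed in tolerant cells only, where it rose by 1.30 (2.46-fold, approximate SE 0.27, adjusted p = 0.00117) per the authors' deposited table. Mmp8 and Mmp13 belong to the metalloproteinase cluster of mouse chromosome 9. In the RefSeq annotation of GRCm38.p6 that chromosome carries 10 metalloproteinase genes, 5 of them between Mmp13 and Mmp8, and of the 10 only this pair was listed in any condition. The pair did not share a condition, since Mmp13 was listed in unstimulated and primed cells and Mmp8 in tolerant cells.

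Markers of other cells that make these enzymes were looked for in the same lists. Of 14 neutrophil markers, Mmp9 was the only one listed in primed cells and Mmp8 and Mmp9 the only ones in tolerant cells, so no neutrophil marker other than this pair was listed. Of 13 osteoclast markers, which include Mmp9 and Ctsk, the others listed were Clcn7, a chloride transporter, at -0.79 (adjusted p = 0.0762) in primed cells, and Car2, a carbonic anhydrase, which rose by 1.82 (adjusted p = 0.00129) in tolerant cells, in the authors' deposited table. The part of such cells in the Mmp8, Mmp9 and Ctsk values was not tested. Of 12 dendritic cell markers, Cd24a stood at 0.93 (adjusted p = 0.573) in unstimulated cells, and Fscn1 rose by 2.58 in primed and by 1.30 in tolerant cells (adjusted p = 8.49e-12 and 0.00149) per the authors' deposited table. Of 12 macrophage markers, Lyz2, which carries the Cre, fell by 1.17, 1.19 and 0.93 in unstimulated, primed and tolerant cells per the authors' deposited table. The part of the Cre allele in the Lyz2 values was not tested. C1qa, Mrc1, Mertk and Cd163 were listed as higher without passing, per the authors' deposited table. The level of these markers in each sample is not known, so the cell type named in the labels could not be checked against them. In bulk samples, fewer cells of a type and less RNA per cell cannot be told apart.

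The cathepsins were the genes of the 9 that were lower without EED. Ctsk (ENSMUSG00000028111), the collagen-degrading cathepsin, fell by 1.89 in unstimulated EED KO cells (3.71-fold lower, approximate SE 0.35, adjusted p = 0.000238) per the authors' deposited table. It ranked 5th by size among 53 listed lower genes, and it was listed in neither primed nor tolerant cells. Ctsl (ENSMUSG00000021477), a lysosomal cysteine protease that in some cells also trims the invariant chain of MHC class II, fell by 0.85 in tolerant EED KO cells (1.81-fold lower, approximate SE 0.21, adjusted p = 0.0181) per the authors' deposited table. In unstimulated cells it stood at -0.81 (approximate SE 0.24, adjusted p = 0.405) per the authors' deposited table. The Ctsl values lay on either side of the adjusted threshold, and their difference was not tested. Ifitm6 and Sirpb1a, at distances of 0.22 and 0.26, lay nearest to Ctsl among 18 other genes listed in just those 2 conditions, computed from the authors' deposited table.

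Serpine2 (ENSMUSG00000026249), also called protease nexin-1, inhibits thrombin, urokinase and plasmin. In unstimulated EED KO cells it rose by 4.29 (19.5-fold, approximate SE 0.48, adjusted p = 5.05e-14) per the authors' deposited table, the second largest value of 174 listed higher genes. It stood at 2.30 in primed cells (approximate SE 0.74, adjusted p = 0.241) and at 2.17 in tolerant cells (approximate SE 0.65, adjusted p = 0.227) per the authors' deposited table. The 3 values shared a direction, and their difference was not tested. Clstn1, a cadherin-related membrane protein, lay nearest among 38 other genes listed in all 3 conditions (distance 1.39), at 2.97, 2.68 and 2.41 in unstimulated, primed and tolerant cells in the authors' deposited table. Tmem178 lay next (distance 2.00), computed from the authors' deposited table.

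Col4a1 (ENSMUSG00000031502) and Col4a2 (ENSMUSG00000031503) encode the chains that assemble into the common form of collagen IV. In unstimulated cells Col4a1 stood at 1.43 (approximate SE 0.36, adjusted p = 0.0932) and Col4a2 at 1.00 (approximate SE 0.28, adjusted p = 0.24) per the authors' deposited table. Col4a2 was listed again in primed cells at 1.03 (approximate SE 0.48, adjusted p = 1) per the authors' deposited table, and neither was listed in tolerant cells. No collagen IV value passed the adjusted threshold, so the pair was higher in the lists without a call. Sorl1 and Fam135a lay nearest to Col4a2, both at a distance of 0.13, among 32 other genes listed in just unstimulated and primed cells, computed from the authors' deposited table. Of 13 endothelial markers, which include both chains, Eng was the only other one listed, at 0.86 in primed and 0.77 in tolerant cells (adjusted p = 0.0559 and 0.99) per the authors' deposited table. Its part in the collagen values was not tested.

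Dcn (ENSMUSG00000019929) encodes decorin, a small proteoglycan that binds collagen fibrils and the growth factor TGF-beta. It rose by 1.71 in LPS primed EED KO cells (3.26-fold, approximate SE 0.43, adjusted p = 0.0287) per the authors' deposited table. In tolerant cells it stood at 1.35 (approximate SE 0.50, adjusted p = 0.668) per the authors' deposited table, and it was not listed in unstimulated cells. Fibroblasts are a main source of decorin. Of 14 fibroblast and stromal markers the only other one listed was Pdpn, which was lower, at -1.01 in primed and -1.12 in tolerant cells with an adjusted p of 1 in both, in the authors' deposited table. The part of such cells in the Dcn values was not tested. Il23r and Plod2 lay nearest to Dcn, at distances of 0.07 and 0.25, among 71 other genes listed in just primed and tolerant cells, computed from the authors' deposited table. Plod2 is a lysyl hydroxylase that prepares collagen for cross-linking.

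**Figure D3:**
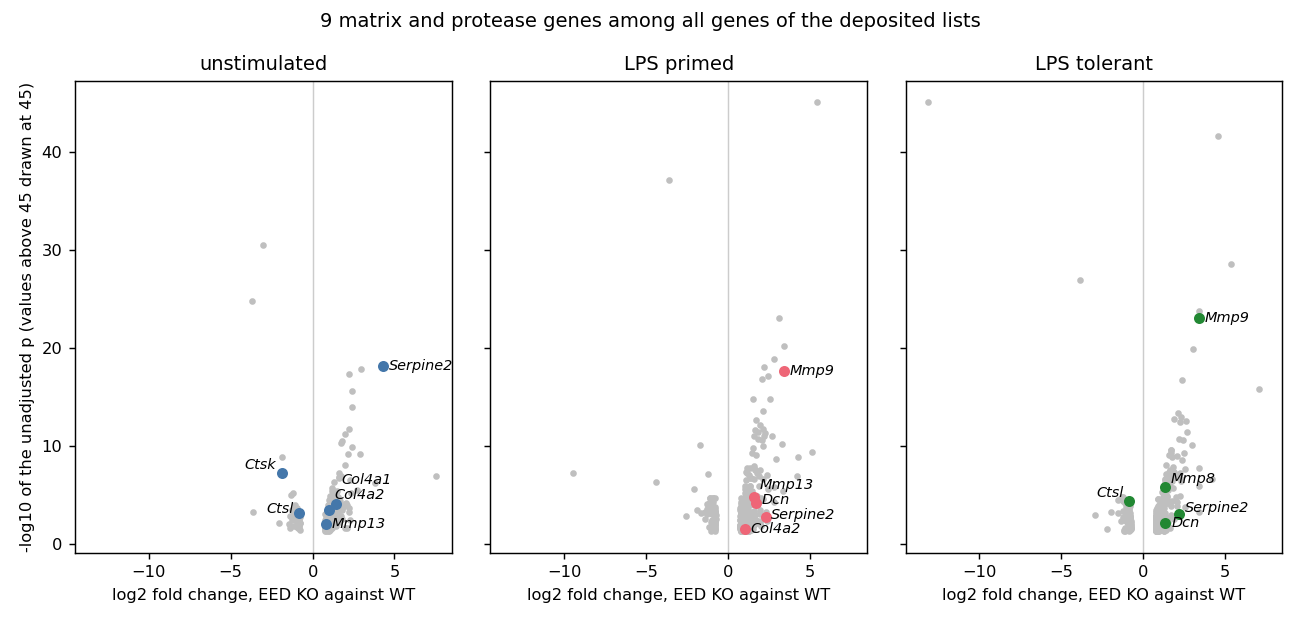
Each gene of the authors' deposited table by its log2 fold change of EED KO against WT (horizontal axis) and -log10 of its unadjusted p (vertical axis, log scale by construction, values above 45 drawn at 45), with the 9 genes coloured and named. Serpine2 in unstimulated cells and Mmp9 in primed and tolerant cells stand far out among the listed higher genes. Ctsk in unstimulated cells ranks 5th by size among 53 listed lower genes, with Eed further out.

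The wider matrix and protease families were followed through 13 lists of 351 genes, which hold the 9 genes and 342 others. Among the 342 others, 8 were listed in unstimulated, 15 in primed and 18 in tolerant cells, of which 7, 14 and 18 were higher. The number that rose was 2, 7 and 7, and 0 fell in each of the 3 conditions by the authors' deposited adjusted p, while 1, 1 and 0 were listed as lower with an unadjusted p under 0.05. As shares of the others that were listed, 25%, 46.7% and 38.9% passed, against 19.4%, 33.2% and 23.6% of all listed genes in either direction. Among listed higher genes 21.8%, 34.6% and 25.9% passed. The median log2 fold change of the others was 1.23, 1.07 and 1.27, against 0.98, 0.96 and 0.86 over all listed genes, taken from the authors' deposited table. These medians keep the sign, and nearly all of the others were higher. Over listed higher genes alone the medians were 1.11, 1.09 and 0.92. The medians of the others include 1 lower gene each in unstimulated and primed cells. They are thus not of like sets there, and no ranking against the higher genes alone is drawn. The metalloproteinase inhibitors, the cystatins and stefins, and the basement membrane proteins other than collagens had no listed gene in the 3 conditions.

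Among the proteases and inhibitors of these lists, the other genes listed were few. Adam19, a membrane-bound metalloproteinase, rose by 2.43 in primed and 1.71 in tolerant cells (adjusted p = 5.44e-14 and 4.76e-07) per the authors' deposited table. Mmp2, gelatinase A, was listed in primed cells only, at 0.93 (adjusted p = 0.131) per the authors' deposited table. Ctsf stood at 1.22 (adjusted p = 1) in unstimulated cells, in the authors' deposited table, so that the cathepsins listed there did not share a direction. Ctsc, the only cathepsin listed in primed cells, stood at 0.82 (adjusted p = 0.337) per the authors' deposited table. Of the 40 serpins other than Serpine2, 2 were listed in unstimulated and 2 in primed cells without a call, with Serpinb9b the largest at -1.26 (adjusted p = 1) per the authors' deposited table. Htra1, a secreted serine protease, stood at 1.14 and 1.06 in primed and tolerant cells (adjusted p = 0.401 and 0.774) per the authors' deposited table. F7, coagulation factor VII of the same list, was the only lower gene among the 15 others listed in primed cells, at -1.02 (adjusted p = 0.436) per the authors' deposited table.

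Enzymes that modify and cross-link matrix proteins were past the threshold in primed and in tolerant cells, and none in unstimulated cells. Of 29 such genes, 3 were listed in primed cells and all 3 rose, and 5 were listed in tolerant cells, of which 4 rose, where 34.6% of all listed higher genes passed in primed and 25.9% in tolerant cells. F13a1, a subunit of the coagulation transglutaminase that cross-links fibrin, rose by 3.40 in both primed and tolerant cells (adjusted p = 7.14e-17 and 1.2e-20) per the authors' deposited table. The prolyl hydroxylase subunit P4ha2 rose by 1.33 in both (adjusted p = 0.0319 and 0.00769) and the lysyl hydroxylase Plod2 by 1.62 and 1.59 (adjusted p = 0.034 and 0.000286) per the authors' deposited table. Lox, lysyl oxidase, rose by 1.43 in tolerant cells (adjusted p = 0.000811), where its relative Loxl2 stood at 1.91 (adjusted p = 0.397) per the authors' deposited table. In unstimulated cells F13a1 was the only enzyme of its list present, at 2.19 (adjusted p = 0.187) per the authors' deposited table. The values of a condition come from the same libraries, so these genes do not support the values of Mmp9 and Dcn independently.

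The listed matrix components other than the 9 genes were few, and all were higher. Among all listed genes, 76.7% in unstimulated, 79.8% in primed and 82.1% in tolerant cells were higher. Of 42 other collagens, 1 was listed in unstimulated and 2 in tolerant cells, of which 0 and 1 rose. Of 15 other small leucine-rich proteoglycans, 1 was listed in primed and 1 in tolerant cells, of which 1 and 0 rose. Of 55 further matrix glycoproteins and proteoglycans, 1 was listed in unstimulated and 5 in tolerant cells, of which 1 and 1 rose. Ltbp2, which binds fibrillin microfibrils, rose by 2.38 in unstimulated and 2.21 in tolerant cells (adjusted p = 5.75e-07 and 3.71e-08) per the authors' deposited table. Col19a1, a collagen associated with basement membrane zones, rose by 2.66 in tolerant cells (adjusted p = 7.68e-09) per the authors' deposited table. Tsku, a small leucine-rich proteoglycan like decorin, rose by 1.05 in primed cells (adjusted p = 0.000811) and stood at 1.17 in tolerant cells (adjusted p = 0.12) per the authors' deposited table. Col4a6, a collagen IV chain encoded apart from Col4a1 and Col4a2, stood at 1.11 in unstimulated cells (adjusted p = 0.218) per the authors' deposited table.

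Among 32 receptors for matrix, 2 were listed in unstimulated, 4 in primed and 3 in tolerant cells, all higher, and 1, 2 and 0 of them rose, where 21.8%, 34.6% and 25.9% of all listed higher genes passed. The integrin subunit Itga9 rose by 2.15 in unstimulated cells (adjusted p = 2.94e-06) and stood at 2.35 and 1.20 in primed and tolerant cells (adjusted p = 0.12 and 0.145) per the authors' deposited table. Itga6, a laminin receptor subunit, rose by 1.07 in primed cells (adjusted p = 0.00121) per the authors' deposited table. Gp6, a collagen receptor best known from platelets, rose by 1.79 in primed cells (adjusted p = 0.00615) per the authors' deposited table.

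**Figure D4:**
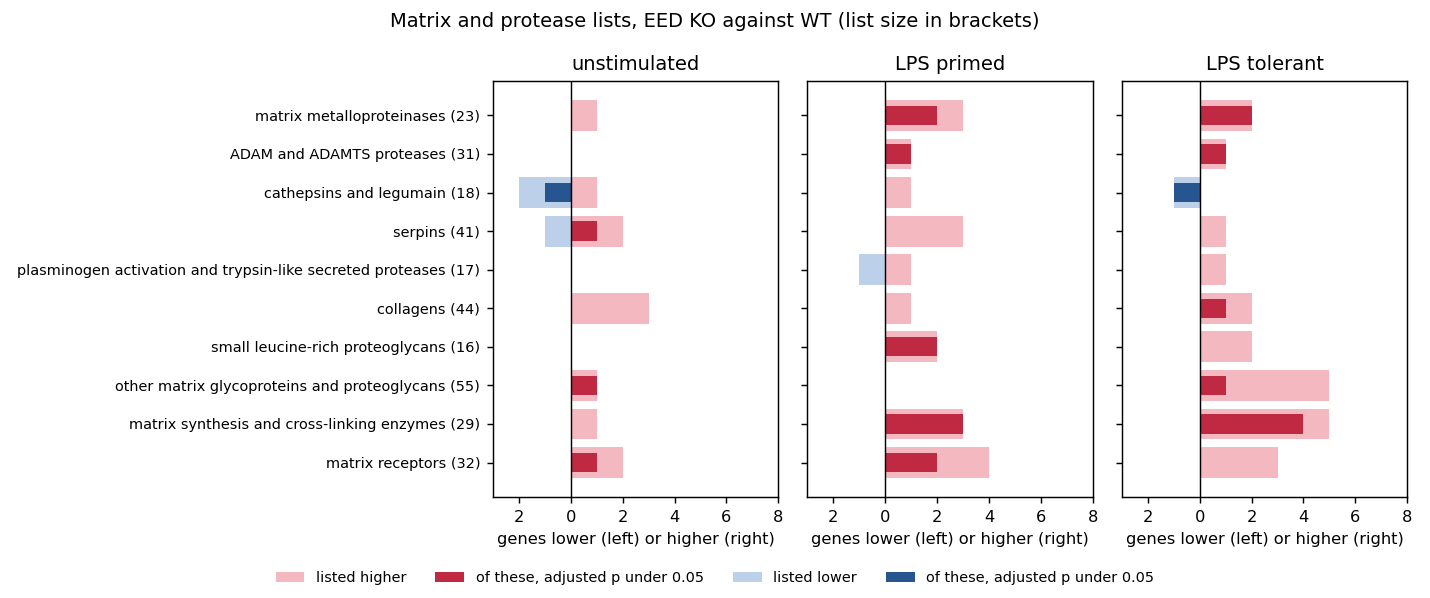
Number of genes of each matrix or protease list that were listed as higher (right of 0) or lower (left of 0) in EED KO cells, with those past an adjusted p of 0.05 in dark colour, in unstimulated, primed and tolerant cells (list sizes in brackets). The 9 genes are included, and lists with no listed gene are left out. Lower genes past the threshold are found among the cathepsins only, as Ctsk in unstimulated and Ctsl in tolerant cells.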

How the data were processed

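RNA-seq was done on 18 libraries of mouse macrophages. HISAT2, edgeR, R 4.0.3 and GRCm39 are named in the submitters' processing notes, and how they were combined is not given in the sources used here. Per the file headers, the authors deposited for each comparison a log fold change, taken here as log2, a p-value and its adjusted form for each gene, in separate lists of higher and lower genes. Words of direction follow an adjusted p under 0.05 in those lists. No model was fitted, and depth per library is unknown.

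The approximate SE is the size of the log2 fold change over the two-sided normal quantile of its p-value. The number of tests is a lower bound, the largest product of rank among listed genes and the ratio of adjusted to unadjusted p; rows rounded to few digits gave ranks only. Both were run on simulated data whose p-values were made with the same normal quantile. Recovery of the SE was thus fixed in advance and does not show that it holds for the deposited p-values. The bound did not exceed the true number of tests in those data, which held no rounded rows. Named were the 9 genes, Eed, list genes past the threshold, otherwise the listed gene of a list with the largest change, a few further listed genes, listed markers, and the 2 nearest genes by Euclidean distance. The genes and lists were chosen with earlier results of these data known. A list symbol was respelled as Gp6 after the data had been seen, and 348 of 351 list symbols matched the reference names. Scripts used Python 3.11.15, pandas 2.3.3 and scipy 1.17.1.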

Additional observations from a re-analysis of the deposited data

How the results depend on the processing

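With all rows as deposited and no limit on the adjusted p, 6, 5 and 5 of the 9 genes counted in unstimulated, primed and tolerant cells, in place of 2, 3 and 3. Without the 9 genes, 2 genes of the matrix and protease lists passed in unstimulated cells, in place of 4. Thresholds of 0.01 and 0.1 on the adjusted p, and a log2 fold change of at least 1 beside 0.05, moved no other count by more than 1.5 times. Read as natural logs, the 16 fold changes would be 1.28 to 3.73 times larger on the linear scale. With a Student t quantile on 4 degrees of freedom the implied SE of all 16 values was smaller, at 1.13e-05 to 0.665 times that from the normal quantile and least for the smallest p-values, so the SE depends on this choice and supports no comparison between conditions. Leaving out the 50 bases from the start on lowered the CpG ratio of 5 of 7 promoters. No paired analysis was possible because the values used are finished comparisons, and for the same reason no replicate was left out in turn. The planned protein comparison was not run.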

Other observations

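Further protease inhibitors stood in the lists outside the families above; they were named after their values had been seen. Ctla2a, which in mouse inhibits cathepsin L-like proteases, rose by 1.50 in LPS primed EED KO cells (2.84-fold, approximate SE 0.37, adjusted p = 0.0164) per the authors' deposited table. In unstimulated cells Ctla2a stood at 1.36 (adjusted p = 0.093) and its close relative Ctla2b at 0.78 (adjusted p = 1) per the authors' deposited table. Reads of the 2 similar genes may be hard to assign. Ctsl was listed as lower in unstimulated cells without passing, and it fell in tolerant cells, where Ctla2a was not listed. A relation between Ctla2a and Ctsl was not tested. Spint2, a membrane-bound inhibitor of serine proteases, was listed in tolerant cells only, where it rose by 1.36 (2.57-fold, approximate SE 0.32, adjusted p = 0.00929) per the authors' deposited table.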
